A study of Mus musculus with 8 samples.

Results

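CD95-expressing 4T1 tumors grown in Balb/c mice were compared with CD95-expressing 4T1 tumors grown in NSG mice, which takes 4 of the 8 sequenced tumor samples of the study. The samples were taken by the host and CD95 status in their labels. 4T1 is an established mammary carcinoma line of Balb/c origin that models triple negative breast cancer. NSG mice lack mature T, B and NK cells through mutations of Prkdc and Il2rg on a NOD background, whereas Balb/c mice are immune competent. Host immunity and host strain therefore changed together and cannot be told apart in this design. Each host carried 1 sample of the parental line (Par) and 1 sample of a line that stably expresses vCas9, both wild type for CD95, the death receptor encoded by Fas. The other 4 samples were CRISPR/Cas9 knockout clones 54 and 69 in the same hosts and served only for tests of whether the host difference depended on tumor CD95. All cells had been placed in the fat pad and grew for at most 20 days. Only the knockouts are stated to be clones, and whether a library held 1 tumor or several is not given in the sources used here.

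A tumor that grows in an immune-competent mouse is entered by T cells, NK cells, B cells, eosinophils, neutrophils and monocytes that become macrophages. Activated T and NK cells kill with granzymes, perforin and Fas ligand, and release interferon gamma, which switches on guanylate binding proteins, the immunoproteasome and both classes of antigen-presenting MHC molecules. Whole-tumor RNA mixes tumor cells with all host cells, so fewer cells of a type and less RNA per cell cannot be told apart in any value below.

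The 4 libraries held 14126418 and 11567185 counts in NSG and 12648746 and 15658765 in Balb/c, for the Par and the vCas9 tumor in that order. Values below are CPM, a gene's count scaled to the normalised library total, and are given for the Par and the vCas9 tumor of a host in that order. The 2 tumors of a group are different lines, and nothing in the labels says how many cultures or animals they came from, so p-values measure only the spread between these samples. At 3 counts a library stood at 0.208 to 0.255 CPM, and where both libraries of a host held at most 3 counts the fold is given as a lower bound against that floor. Floors cover counting error only. Fas RNA itself stood at 33.9 and 22.6 CPM in NSG and 51.6 and 46.9 CPM in Balb/c tumors, which did not overlap. The log2 fold change was 0.80 ± 0.36 (SE, adjusted p = 0.123 by edgeR), which misses the threshold. In the knockout libraries Fas stood between 12.9 and 33.7 CPM, so this RNA, which host cells also carry, does not check the knockout label. Il2rg, the cytokine receptor chain mutated in NSG mice, stood at 5.82 and 6.63 CPM in NSG and 108 and 98.3 CPM in Balb/c tumors.

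Of 15310 genes tested, 2344 (15.3%) were higher and 2481 (16.2%) lower in Balb/c than in NSG tumors, together 31.5% of all genes at an adjusted p under 0.05 (edgeR quasi-likelihood test, Benjamini-Hochberg), and 45.8% were under 0.05 unadjusted. With the cell line as a block, 2073 genes passed, 1196 higher (7.81%) and 877 lower (5.73%), together 13.5% of all genes, and 2051 of them were among the 4825. This block spans all 8 libraries and so also pairs the knockout clones across hosts by their labels. Fitted to the 4 CD95-expressing libraries alone with the line as a block, 6475 of 14632 genes passed (44.3%), 3479 higher (23.8%) and 2996 lower (20.5%), and without the block 6838 passed. With 4 libraries that blocked fit leaves 1 residual degree of freedom, against 4 in the main fit. Its larger counts are therefore not firmer than the blocked counts over all 8 libraries. The low blocked count was seen only with the knockout libraries in the fit and their clones paired as labelled, among the block fits run. The split depended on scaling, since 57.9% of calls were higher with DESeq2's size factors and 36.5% with total counts, against 48.6% in the main fit. Over all genes the log2 fold change had a median of 0.01 and -0.24 under those scalings and of -0.08 in the main fit. Leaving out 1 of the 4 libraries lowered the count to 858 without NSG Par, 1270 without NSG vCas9, 1289 without Balb/c Par and 1482 without Balb/c vCas9, and the lone library of that host is then assumed to vary like the other groups. Beside each count of a gene list stand the blocked count, from the block over all 8 libraries, the 4-library count, from the block over the 4 CD95-expressing libraries alone where a few members could not be tested, and the left-out range, which is the lowest and highest count when 1 of these 4 libraries was dropped. A p-value given with the block is from all 8 libraries. Each main count of a gene list is to be read against the 15.3% of all genes higher and the 16.2% lower. Both lines moved at least 2-fold the same way for 1783 higher (11.6%) and 1272 lower (8.31%) genes, and at least 2-fold in opposite ways for 39.

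**Figure D1:**
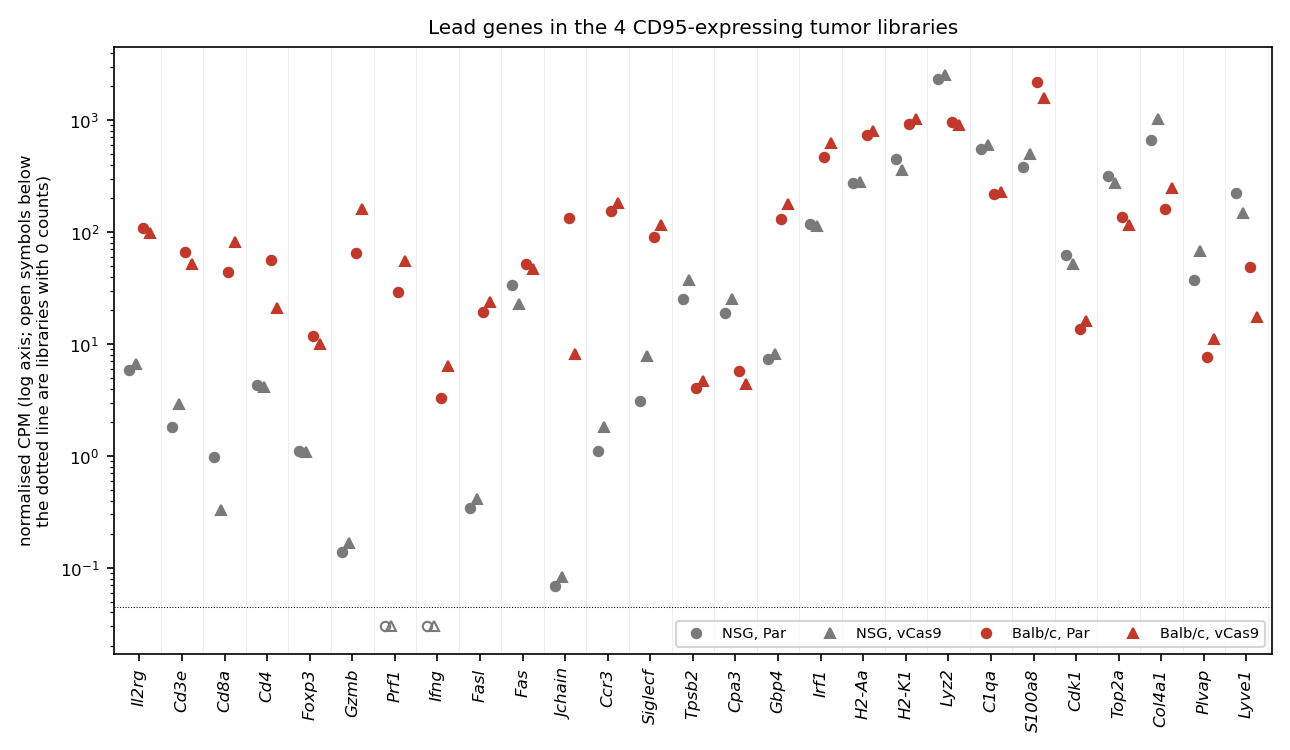
Normalised CPM (log axis) of 27 genes in the 4 CD95-expressing tumor libraries, grey for NSG and red for Balb/c, circles for Par and triangles for vCas9, with open symbols for libraries at 0 counts. Il2rg, the T cell, killing and B cell genes and Ccr3 stand higher in both Balb/c libraries, Fas lies closer together, and Lyz2, C1qa, Cdk1, Top2a, Col4a1, Plvap and Lyve1 stand lower.

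All 15 tested members of the T cell receptor complex, coreceptor and signalling list were higher in Balb/c tumors, with a blocked count of 15, a 4-library count of 15 and a left-out range of 15 to 15, against 15.3% of all genes. Their median log2 fold change was 6.18, and in every one both Balb/c libraries were above both NSG libraries, as in 35.4% of all genes. Cd3e, a signalling chain of the receptor complex, stood at 1.80 and 2.90 CPM in NSG and 66.0 and 51.4 CPM in Balb/c tumors (log2 fold change 4.65 ± 0.34 SE, adjusted p = 0.000424). Cd3g, its partner chain, had at most 1 count in an NSG library and 42.5 and 48.0 CPM in Balb/c, at least 182-fold higher. Cd8a, of killer T cells, rose from 0.970 and 0.331 CPM to 43.6 and 80.9 CPM. Cd4, of helper T cells and some myeloid cells, rose from 4.29 and 4.14 CPM to 56.3 and 20.9 CPM. Within Balb/c the vCas9 tumor thus held more Cd8a and the Par tumor more Cd4, each from 1 library. Lck, the kinase bound to the coreceptors, rose from 1.11 and 0.745 CPM to 61.7 and 44.0 CPM. Constant-region genes of the T cell receptor were not analysed here.

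Of 14 cytotoxic effector genes, 12 were higher and none lower (blocked count 10, 4-library count 12, left-out range 9 to 10). In NSG tumors 8 of the 14 had at most 3 counts in each library, so that the median log2 fold change is 7.74 as fitted and 4.29 with those genes at their bound. Gzmb, the granzyme of activated killer cells, stood at 0.139 and 0.166 CPM in NSG and at 64.8 and 162 CPM in Balb/c tumors, at least 456-fold higher by the mean of the Balb/c libraries and at least 261-fold by the Par library alone. Gzma had no count in NSG and 64.0 and 98.8 CPM in Balb/c, at least 328-fold higher. Prf1, the pore former perforin, had no count in NSG and 28.9 and 55.3 CPM in Balb/c, at least 169-fold higher. Every one of these 3 genes was higher in the vCas9 than in the Par tumor of Balb/c mice, as were 12 of the 14 genes of the list. Fasl, the ligand of CD95, rose from 0.346 and 0.414 CPM to 19.4 and 23.6 CPM (log2 fold change 5.79 ± 0.42 SE, adjusted p = 0.000424). Ifng, which encodes interferon gamma, had no count in NSG and 3.31 and 6.31 CPM in Balb/c. Gzme, which did not pass, stood at 0.762 and 1.91 CPM in NSG and 1.27 and 1.80 CPM in Balb/c tumors, groups that overlap.

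NK cell genes rose as a group with 1 exception. Among 11 tested, 10 were higher and 1 lower (blocked counts 10 and 0, 4-library counts 10 and 1, left-out range 8 to 9 for the higher ones). The median log2 fold change was 5.96 as fitted and 4.04 with 7 genes at their bound. Ncr1, an activating receptor that marks NK cells, had no count in NSG and 3.65 and 5.34 CPM in Balb/c, at least 18.1-fold higher. Klrb1c, another NK receptor, stood at 0.139 and 0.580 CPM in NSG and 2.72 and 4.02 CPM in Balb/c. Klrc1, an inhibitory receptor of NK and killer T cells, had no count in NSG and 20.7 and 37.0 CPM in Balb/c. Klra8 was the exception, with 0.970 and 2.15 CPM in NSG and no count in Balb/c (adjusted p = 0.0108, and 0.0550 with the block). It belongs to a family of near-identical receptor genes that vary between mouse strains, and its value is uncertain.

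Inhibitory and costimulatory receptors of T cells were higher in 11 of 12 cases (blocked count 10, 4-library count 11, left-out range 9 to 11, median log2 fold change 3.83). Pdcd1, which encodes PD-1, rose from 0.693 and 0.663 CPM to 23.4 and 63.6 CPM, again with more in the vCas9 tumor. Ctla4, the inhibitory receptor that binds CD80 and CD86, had at most 2 counts in an NSG library and 94.9 and 99.6 CPM in Balb/c, at least 391-fold higher. Icos, a costimulator, reached 106 and 114 CPM in Balb/c, at least 444-fold higher. Tnfrsf9, which encodes 4-1BB, was already at 10.9 and 11.5 CPM in NSG and rose to 57.4 and 77.7 CPM. Btla was called (log2 fold change 3.56 ± 0.68 SE, adjusted p = 0.00918) but not with the block (adjusted p = 0.0505), and stood at 45.2 CPM in the Par and 11.4 CPM in the vCas9 tumor of Balb/c mice.

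Regulatory T cell genes were higher for 5 of 8 tested and lower for 1 (blocked counts 5 and 0, 4-library counts 5 and 1, left-out range 4 to 5 for the higher ones). Foxp3, the transcription factor that defines the lineage, rose from 1.11 and 1.08 CPM to 11.8 and 9.98 CPM. Ikzf2 rose from 6.09 and 11.9 CPM to 97.7 and 83.0 CPM. Ccr8, a chemokine receptor of tumor regulatory T cells, had no count in NSG and 5.18 and 4.85 CPM in Balb/c, at least 20.2-fold higher. The member that fell was Lrrc32, the surface anchor of latent TGF-beta that platelets and stromal cells also make, at 50.1 and 79.3 CPM in NSG and 33.6 and 23.5 CPM in Balb/c (adjusted p = 0.0159, and 0.0677 with the block).

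Ligands of these receptors and suppressive enzymes moved less. Of 13 tested, 5 were higher and 1 lower (blocked counts 3 and 1, 4-library counts 7 and 1, left-out range 0 to 4 for the higher ones), with a median log2 fold change of 0.38. Cd274, which encodes PD-L1, stood at 205 and 218 CPM in NSG and 914 and 1020 CPM in Balb/c tumors (log2 fold change 2.19 ± 0.52 SE, adjusted p = 0.0188, and 0.0705 with the block). Pdcd1lg2, the second PD-1 ligand, rose from 6.16 and 4.72 CPM to 25.9 and 36.7 CPM. Cd80 rose from 61.8 and 68.1 CPM to 283 and 363 CPM. Nos2, the inducible nitric oxide synthase, rose from 91.1 and 74.8 CPM to 231 and 290 CPM. Nt5e, the ectoenzyme CD73 that makes adenosine, fell from 345 and 313 CPM to 136 and 175 CPM. Ido1, which degrades tryptophan, stood at 1.32 and 1.24 CPM in NSG but at 4.25 and 30.8 CPM in Balb/c, a spread between the 2 Balb/c tumors with which it did not pass (adjusted p = 0.0619).

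B cell genes were higher in both Balb/c tumors but far more so in 1 of them. Of 14 tested, 13 were called higher (blocked count 12, 4-library count 13, left-out range 4 to 14, the 4 being without NSG Par), and the median log2 fold change was 5.96 as fitted and 5.07 with 6 genes at their bound. All 14 were higher in the Balb/c Par than in the Balb/c vCas9 tumor, by a median of 2.21 on the log2 scale. Cd79a, a signalling chain of the B cell receptor, stood at 0.416 and 0.414 CPM in NSG and 28.3 and 8.87 CPM in Balb/c. Jchain, which joins secreted antibody chains in plasma cells, stood at 133 and 8.11 CPM in Balb/c and under 0.1 CPM in NSG. It was at least 283-fold higher by the mean of the Balb/c libraries, which the Par library carried, and at least 32.6-fold by the vCas9 library alone. The summed CPM of the 15 genes found, 1 of them under the filter on low counts, was 14.6 and 17.2 in NSG and 495 and 121 in Balb/c. Of 5 milk protein genes tested 2 were called higher (blocked count 2, 4-library count 4, left-out range 0 to 2). Csn2, which encodes a casein, stood at 0.416 CPM and no count in NSG and 19.9 and 1.94 CPM in Balb/c, and all 5 tested milk genes were higher in the Par than in the vCas9 tumor of Balb/c mice. Glycam1, of high endothelial venules and the milk-producing gland, had 51 counts in the Balb/c Par library and 2 in the Balb/c vCas9 library, and stayed under the filter on low counts. Whether tissue next to the tumor entered that library was not tested.

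Lymphoid tissue and homing genes were called higher in 4 of 7 tested and lower in 1 (blocked counts 3 and 0, 4-library counts 4 and 1, left-out range 1 to 4 for the higher ones). Ltb, a lymphotoxin subunit, rose from 1.25 and 2.07 CPM to 22.9 and 23.3 CPM. Ccr7, the receptor that guides naive T cells and mature dendritic cells, rose from 32.0 and 21.04 CPM to 184 and 54.5 CPM, the Par tumor holding more. Cxcl13, the chemokine of B cell follicles, fell from 5.54 and 8.53 CPM to 1.95 and 2.01 CPM (adjusted p = 0.0240, and 0.0592 with the block). Its receptor Cxcr5 stood at 3.60 and 3.73 CPM in NSG and 34.9 and 12.5 CPM in Balb/c (adjusted p = 0.0123, and 0.0506 with the block).

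Among receptors and ligands of the common gamma chain, 8 of 11 tested were higher and none lower (blocked count 4, 4-library count 10, left-out range 3 to 5), with a median log2 fold change of 1.71 as fitted and 1.02 with 1 gene at its bound. Il2rg gave a log2 fold change of 4.05 ± 0.22 (SE, adjusted p = 0.000236). Il2rb, the chain shared by the IL-2 and IL-15 receptors, rose from 2.42 and 1.91 CPM to 136 and 168 CPM. Il4, the type 2 cytokine, rose from 1.45 and 1.16 CPM to 16.1 and 20.2 CPM. Jak3, the kinase that docks on the common chain, stood at 68.9 and 69.9 CPM in NSG and 83.4 and 98.7 CPM in Balb/c and did not pass (adjusted p = 0.145).

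**Figure D2:**
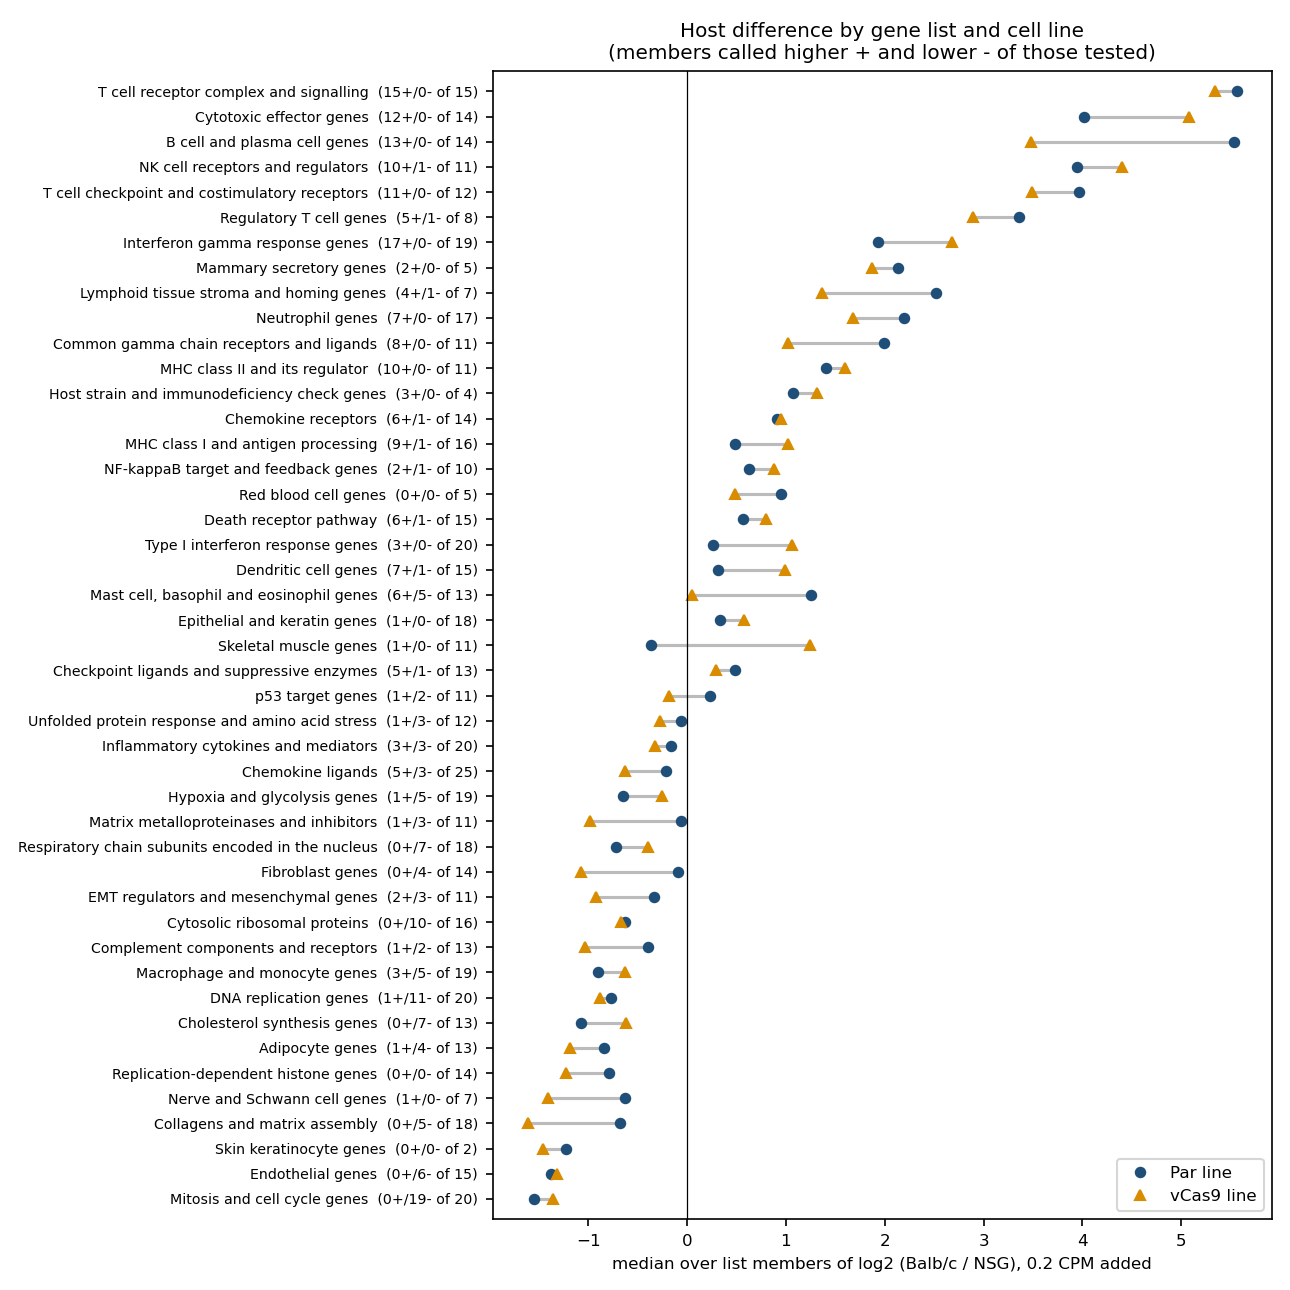
Median over the tested members of each of 45 gene lists of the log2 ratio of Balb/c to NSG tumors, circles for the Par and triangles for the vCas9 line, with the number of members called higher and lower beside each name. T cell, cytotoxic, B cell and NK lists stand at the top, mitosis and endothelial lists at the bottom, and the lines differ most for skeletal muscle (-0.37 and 1.24) and B cell genes (5.53 and 3.48).

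Genes switched on by interferon gamma were higher almost throughout. Of 19 tested, 17 were higher and none lower (blocked count 16, 4-library count 17, left-out range 8 to 14), and the median log2 fold change was 2.32. Irf1, a transcription factor that interferon gamma induces, rose from 118 and 114 CPM to 470 and 626 CPM. Gbp4, a guanylate binding protein, rose from 7.41 and 8.20 CPM to 130 and 177 CPM. Gbp2, of the same family, rose from 73.1 and 60.5 CPM to 360 and 436 CPM. In 16 of 19 genes the vCas9 tumor of Balb/c mice held more than the Par tumor. The median Par to vCas9 log2 ratio of the list was -0.32 in Balb/c and 0.33 in NSG, each from 1 library a line. The vCas9 tumor of Balb/c mice also held more Ifng, and a link between the 2 was not tested. The chemokines of the list parted. Cxcl9, which draws T cells through CXCR3, rose from 2.22 and 1.57 CPM to 14.01 and 33.7 CPM. Cxcl10, which binds the same receptor, stood at 34.1 and 24.8 CPM in NSG and 21.8 and 29.0 CPM in Balb/c, overlapping groups (log2 fold change -0.21 ± 0.27 SE, adjusted p = 0.560).

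Interferon acts on promoters through known short motifs, and 3 promoters are shown because they belong to 2 members that rose and 1 that did not pass. The GAS motif TTCNNNGAA, which reads the same on both strands, binds STAT dimers, and the ISRE motif, searched as GAAA, any 2 bases and GAAA again on either strand, binds IRF and STAT factors. Each sequence is the 250 bases before the annotated start, from RefSeq on build GRCm38.p6, 5′ to 3′ on the gene's strand, with matches in capitals. They lie at chr11:53769764-53770013 (plus strand) for Irf1, chr3:142620413-142620662 (plus strand) for Gbp2 and chr5:92348890-92349139 (minus strand) for Cxcl10.
Irf1: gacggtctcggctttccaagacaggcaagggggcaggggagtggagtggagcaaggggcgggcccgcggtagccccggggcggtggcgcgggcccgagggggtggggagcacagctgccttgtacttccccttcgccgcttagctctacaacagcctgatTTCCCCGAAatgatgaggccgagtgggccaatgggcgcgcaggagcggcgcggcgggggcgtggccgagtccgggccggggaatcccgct
Gbp2: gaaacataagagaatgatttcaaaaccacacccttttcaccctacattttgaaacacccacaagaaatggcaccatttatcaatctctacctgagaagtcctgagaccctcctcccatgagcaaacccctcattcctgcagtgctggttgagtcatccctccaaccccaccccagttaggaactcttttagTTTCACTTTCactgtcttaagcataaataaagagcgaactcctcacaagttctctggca
Cxcl10: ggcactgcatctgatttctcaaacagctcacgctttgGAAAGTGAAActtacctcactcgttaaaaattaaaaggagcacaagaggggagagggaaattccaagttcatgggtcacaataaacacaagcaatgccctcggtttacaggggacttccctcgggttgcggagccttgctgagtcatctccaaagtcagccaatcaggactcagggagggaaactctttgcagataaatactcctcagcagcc
Irf1 holds 1 GAS match, and Gbp2 and Cxcl10 hold 1 ISRE match each, so an ISRE match is found both in a gene that rose and in one that did not pass. RefSeq windows of 300 bases, 250 before and 50 after the start, were at hand for 13 of the 17 genes called higher. An ISRE match was in 9 of the 13 (69.2%) and in 3.52% of 27025 promoters, 1 a gene. A GAS match was in 7 of the 13 (53.8%) and in 8.37% of all promoters. The list was drawn up of interferon response genes, so shares above those of all promoters come with the list. Members that were not called were not counted, so these shares do not bear on the host difference.

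Type I interferons act through part of the same machinery. Of 20 type I interferon response genes tested, 3 were higher and none lower (blocked count 1, 4-library count 10, left-out range 0 to 1), with a median log2 fold change of 0.57. That count of higher genes lay near the 15.3% of all genes called higher, and 16.2% of all genes were lower. Ifih1, a sensor of double-stranded RNA, rose from 62.4 and 44.0 CPM to 144 and 152 CPM. Zbp1, a sensor of Z-form nucleic acid, rose from 29.0 and 21.2 CPM to 78.0 and 92.2 CPM (adjusted p = 0.0217, and 0.0509 with the block). Isg15, a ubiquitin-like modifier, stood at 42.9 and 25.4 CPM in NSG and 91.3 and 101 CPM in Balb/c and did not pass (adjusted p = 0.115). The NSG libraries differed among themselves, with a median Par to vCas9 log2 ratio of 0.73 over the list.

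Class I antigen presentation rose in part. Of 16 tested, 9 were higher and 1 lower (blocked counts 7 and 0, 4-library counts 10 and 2, left-out range 4 to 6 for the higher ones), with a median log2 fold change of 0.76. Tap1, the peptide transporter, rose from 43.8 and 30.6 CPM to 192 and 232 CPM (log2 fold change 2.51 ± 0.25 SE, adjusted p = 0.00110). Nlrc5, the activator of class I genes, rose from 72.6 and 57.1 CPM to 273 and 299 CPM. Psmb9, an immunoproteasome subunit, rose from 18.1 and 16.8 CPM to 50.7 and 67.5 CPM. H2-K1, a classical heavy chain, rose from 453 and 359 CPM to 928 and 1020 CPM. B2m, the shared light chain, stood at 1210 and 838 CPM in NSG and 1380 and 1480 CPM in Balb/c and did not pass (adjusted p = 0.295). The member that fell was Calr, a chaperone of the endoplasmic reticulum, from 944 and 929 CPM to 527 and 531 CPM (adjusted p = 0.0396, and 0.102 with the block). ISRE and GAS matches were in 1 each of the 7 promoters at hand of the 9 called genes (14.3%).

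Class II genes were called higher in 10 of 11 cases tested, but the blocked count was 3, the 4-library count 11 and the left-out range 1 to 4. H2-Aa, an alpha chain, stood at 275 and 279 CPM in NSG and 729 and 792 CPM in Balb/c (log2 fold change 1.46 ± 0.37 SE, adjusted p = 0.0236, and 0.0547 with the block). Cd74, the invariant chain, stood at 413 and 433 CPM in NSG and 1060 and 1310 CPM in Balb/c (adjusted p = 0.0219, and 0.0575 with the block). Ciita, the master activator of class II genes, rose from 5.06 and 6.21 CPM to 34.0 and 34.7 CPM and passed in both fits. H2-Ea-ps had no count in NSG tumors and 326 and 387 CPM in Balb/c, at least 1440-fold higher, the highest fitted fold change of any gene in the comparison. The E alpha gene is known to be defective in NOD mice. H2-DMa, which loads peptides, stood at 33.9 and 44.0 CPM in NSG and 45.0 and 64.8 CPM in Balb/c and did not pass (adjusted p = 0.350).

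Dendritic cell genes were mixed, with 7 of 15 higher and 1 lower (blocked counts 4 and 0, 4-library counts 7 and 1, left-out range 2 to 6 for the higher ones). Cd209a rose from 2.91 and 2.07 CPM to 13.8 and 11.1 CPM. Itgae, an integrin chain of type 1 dendritic cells and of resident killer T cells, rose from 7.34 and 6.05 CPM to 24.2 and 21.6 CPM. Flt3, the growth factor receptor of the lineage, stood at 5.54 and 4.80 CPM in NSG and 14.6 and 8.87 CPM in Balb/c (adjusted p = 0.0215, and 0.0569 with the block). Zbtb46, its transcription factor, stood at 12.9 and 13.9 CPM in NSG and 11.9 and 10.7 CPM in Balb/c and did not pass. Fscn1, an actin bundler of mature dendritic cells and of tumor cells, fell from 140 and 137 CPM to 63.7 and 44.4 CPM (adjusted p = 0.0141, and 0.0538 with the block).

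Eosinophil and mast cell genes went opposite ways. Of 13 tested in the joint list, 6 were higher and 5 lower, and both blocked counts were the same, 6 and 5 (4-library counts 6 and 5, left-out ranges 4 to 5 and 3 to 4). Ccr3, the eotaxin receptor of eosinophils, rose from 1.11 and 1.82 CPM to 154 and 183 CPM (log2 fold change 6.86 ± 0.40 SE, adjusted p = 0.000268). Siglecf, an eosinophil lectin, rose from 3.12 and 7.87 CPM to 89.9 and 115 CPM. Prg2, which encodes the major basic protein of their granules, had at most 2 counts in an NSG library and 42.0 and 59.2 CPM in Balb/c, at least 204-fold higher. Il5ra, the receptor of their growth factor, was at least 47.0-fold higher. Ccl11, the eotaxin that CCR3 binds, rose from 24.7 and 34.7 CPM to 126 and 72.4 CPM. The genes that fell encode mast cell products. Tpsb2, a tryptase, fell from 25.0 and 37.6 CPM to 4.08 and 4.71 CPM (log2 fold change -2.83 ± 0.45 SE, adjusted p = 0.00546). Cpa3, a carboxypeptidase of mast cell granules, fell from 19.1 and 25.3 CPM to 5.78 and 4.37 CPM, and Mcpt4, a chymase, from 12.5 and 19.7 CPM to 5.10 and 3.74 CPM. Kit, the stem cell factor receptor of mast cells, went against them, from 13.5 and 17.2 CPM to 35.2 and 44.4 CPM.

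Of 19 macrophage and monocyte genes, 3 were higher and 5 lower, against 15.3% and 16.2% of all genes. Both blocked counts were 0, the 4-library counts were 4 and 10, and the left-out ranges were 0 to 1 and 0 to 2. Lyz2, lysozyme of macrophages and neutrophils, stood at 2350 and 2550 CPM in NSG and 953 and 901 CPM in Balb/c (log2 fold change -1.40 ± 0.35 SE, adjusted p = 0.0225, and 0.0528 with the block). C1qa, the complement protein of resident macrophages, stood at 549 and 600 CPM in NSG and 217 and 227 CPM in Balb/c (adjusted p = 0.0486, and 0.107 with the block). Fcgr1, an Fc receptor, stood at 170 and 122 CPM in NSG and 39.3 and 57.4 CPM in Balb/c (adjusted p = 0.0102, and 0.0518 with the block). The 3 members called higher were Ccr2, Ly6c2 and Adgre1. Ccr2, the receptor that brings monocytes from blood, was at 91.9 and 80.1 CPM in NSG and 177 and 252 CPM in Balb/c, and Ly6c2 at 6.58 and 5.63 CPM and 17.6 and 18.8 CPM (adjusted p = 0.0193 and 0.0269, and 0.0737 and 0.0797 with the block). Adgre1, which encodes F4/80, stood at 184 and 175 CPM in NSG and 245 and 338 CPM in Balb/c (adjusted p = 0.0399, and 0.112 with the block). Csf1r, the receptor on which the lineage depends, stood at 450 and 518 CPM in NSG and 377 and 485 CPM in Balb/c, overlapping groups that did not pass.

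Neutrophil genes stood higher in Balb/c tumors for 16 of 17 without overlap of the libraries, against 35.4% of all genes, but 7 passed and the blocked count was 2 (4-library count 16, left-out range 0 to 2). S100a8, a calcium binding protein that fills neutrophil cytoplasm, stood at 381 and 496 CPM in NSG and 2200 and 1590 CPM in Balb/c (log2 fold change 2.11 ± 0.79 SE, adjusted p = 0.0740). Csf3r, the receptor of G-CSF, stood at 172 and 210 CPM in NSG and 784 and 696 CPM in Balb/c (adjusted p = 0.0233, and 0.0803 with the block). Retnlg rose from 39.8 and 55.5 CPM to 447 and 509 CPM and passed in both fits. Ngp, a protein of secondary granules, stood at 13.8 and 21.1 CPM in NSG and 161 and 163 CPM in Balb/c (adjusted p = 0.0200, and 0.0745 with the block). Csf3, the G-CSF gene itself, fell from 177 and 106 CPM to 32.9 and 30.5 CPM (adjusted p = 0.0160, and 0.0603 with the block).

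**Figure D3:**
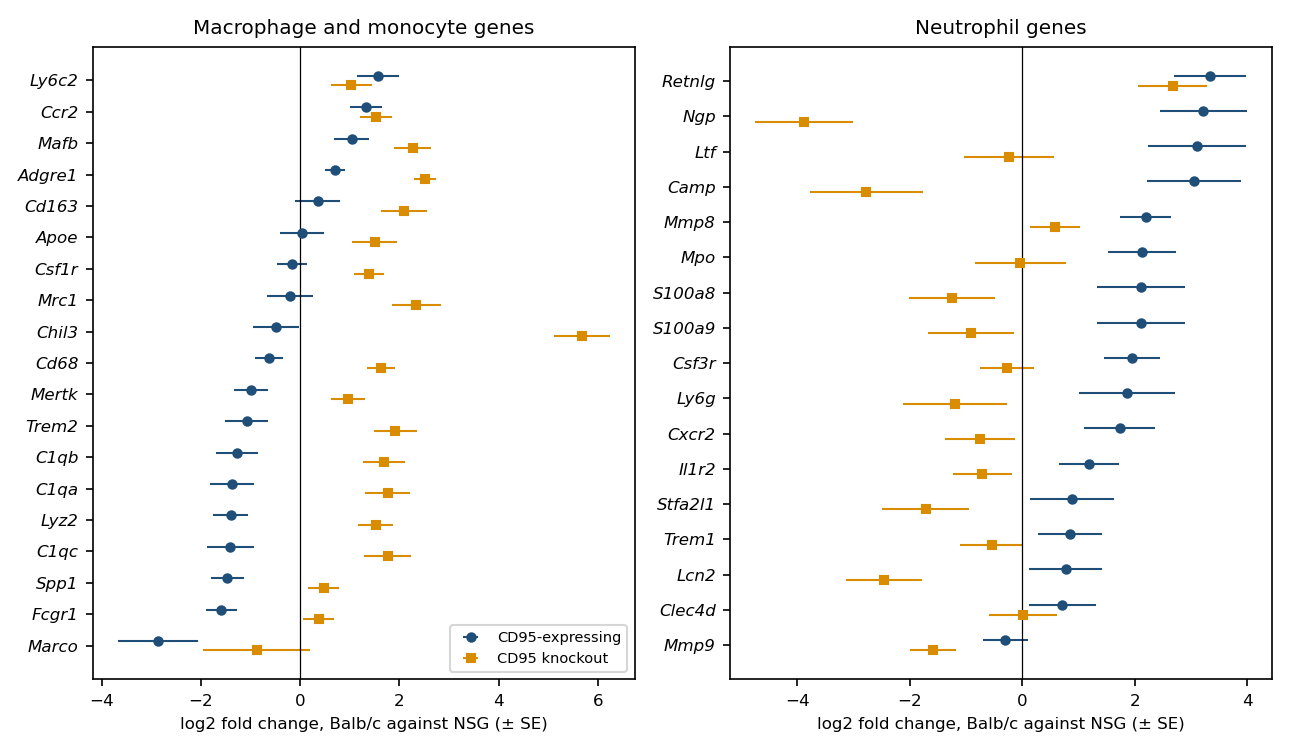
Log2 fold change between Balb/c and NSG tumors (± SE) of 19 macrophage and monocyte genes and 17 neutrophil genes, circles for CD95-expressing tumors and squares for CD95 knockout tumors. Genes of the macrophage and monocyte list other than Ly6c2 (1.57 in CD95-expressing and 1.03 in knockout tumors) lie further right in knockout tumors and those of the neutrophil list further right in CD95-expressing tumors, for example Lyz2 (-1.40 and 1.52) and Ngp (3.22 and -3.88).

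In CD95 knockout tumors the same host contrast gave 14 of 19 macrophage genes higher and none lower, where 15.7% of all genes were higher and 15.4% lower, together 31.1%, and 43.4% were under an unadjusted p of 0.05. Lyz2 there had a log2 fold change of 1.52 and C1qa of 1.76. The test of the difference between the contrasts called 0 of 15310 genes at an adjusted p under 0.05 by edgeR, with 3452 (22.5%) at an unadjusted p under 0.05. DESeq2 called 974, and edgeR without a filter on low counts called 674. EdgeR with the line as a block called 0 (smallest adjusted p = 0.246), as did limma-voom and edgeR with DESeq2's size factors or total counts. At an unadjusted p under 0.05, 16 of 19 macrophage genes had a lower and none a higher host difference in CD95-expressing tumors, and 12 of 17 neutrophil genes a higher and none a lower one. The smallest adjusted p of that test by edgeR was 0.0691 in the macrophage list and 0.0778 in the neutrophil list. DESeq2 called 13 macrophage genes with a lower and 5 neutrophil genes with a higher host difference, and edgeR without a filter on low counts called 12 and 7. Over all genes DESeq2 called 403 lower and 571 higher of 15310. Without that filter edgeR called 251 lower and 423 higher of 20832. With the line as a block edgeR called none of either list, with smallest adjusted p of 0.246 and 0.256. Limma-voom, DESeq2's size factors and total counts gave no call in either list. For neutrophil genes the median log2 ratio of Balb/c to NSG was -2.64 in clone 54 and 0.50 in clone 69 when the clones were paired by their labels, and -1.46 and -0.53 when they were crossed between hosts, so the difference in sign between clones depended on that pairing. For macrophage genes these medians were 2.16 and 0.80 as labelled and 2.09 and 1.03 crossed, against -0.90 in Par and -0.63 in vCas9. T cell genes gave 15 of 15 higher in both contrasts, with 2 of 15 at an unadjusted p under 0.05 in the test of the difference.

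Chemokine ligands as a list showed no common direction, with 5 of 25 higher and 3 lower (blocked counts 4 and 2, 4-library counts 8 and 8, left-out ranges 2 to 3 and 1 to 2). Both counts lay near the shares of all genes, 15.3% higher and 16.2% lower. Ccl5, a T cell chemokine, rose from 6.72 and 3.56 CPM to 25.1 and 48.0 CPM. Ccl2, the monocyte attractant, stood at 477 and 512 CPM in NSG and 302 and 197 CPM in Balb/c and did not pass (adjusted p = 0.0910). Cxcl14 fell most, from 217 and 358 CPM to 20.6 and 21.3 CPM (log2 fold change -3.78 ± 0.30 SE, adjusted p = 0.000599). Cxcl1, a neutrophil attractant, fell from 1380 and 1260 CPM to 759 and 573 CPM (adjusted p = 0.0446, and 0.0642 with the block). Of 14 chemokine receptors, 6 were higher and 1 lower (blocked counts 5 and 1, 4-library counts 9 and 1, left-out range 2 to 5 for the higher ones). Cxcr6, of tissue-resident and killer T cells, rose from 2.42 and 2.73 CPM to 22.3 and 65.8 CPM. Cx3cr1, the fractalkine receptor of patrolling monocytes, macrophages and some killer T cells, fell from 64.9 and 73.1 CPM to 7.56 and 11.4 CPM.

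Inflammatory cytokines gave 3 of 20 higher and 3 lower (blocked counts 0 and 1, 4-library counts 8 and 6, left-out ranges 0 to 0 and 1 to 2). Such counts are close to the 15.3% of all genes called higher and the 16.2% called lower. Il11, a gp130 cytokine of stromal and tumor cells, fell from 53.5 and 47.1 CPM to 1.10 and 3.53 CPM (log2 fold change -4.41 ± 0.45 SE, adjusted p = 0.00121). Il1b, the main inflammasome product, stood at 2080 and 2320 CPM in NSG and 4040 and 4230 CPM in Balb/c and did not pass (adjusted p = 0.262). Tnf stood at 85.0 and 65.8 CPM in NSG and 144 and 138 CPM in Balb/c and did not pass either (adjusted p = 0.230). For both the NSG and Balb/c libraries did not overlap. Complement genes gave 1 of 13 higher and 2 lower (blocked counts 0 and 2, 4-library counts 3 and 5, left-out ranges 0 to 0 and 1 to 1), against the same shares of all genes. Hc, the fifth complement component, which NOD mice lack, stood at 2.22 and 2.15 CPM in NSG and 6.88 and 8.87 CPM in Balb/c (adjusted p = 0.0316, and 0.0974 with the block). C2 fell from 33.2 and 43.9 CPM to 8.92 and 12.8 CPM.

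Death receptor genes were higher in 6 of 15 cases and lower in 1 (blocked counts 3 and 0, 4-library counts 8 and 1, left-out range 2 to 4 for the higher ones). Beside Fasl, Tnfsf10, which encodes the ligand TRAIL, rose from 3.39 and 4.56 CPM to 13.9 and 22.8 CPM. Ripk1, the kinase that joins death and survival signals, rose from 88.6 and 76.4 CPM to 163 and 163 CPM. Fadd, the adaptor that CD95 recruits, stood at 5.89 and 9.28 CPM in NSG and 5.78 and 4.78 CPM in Balb/c and did not pass (adjusted p = 0.227). Casp8, the protease it activates, stood at 83.5 and 88.7 CPM in NSG and 99.3 and 111 CPM in Balb/c (adjusted p = 0.163). Mlkl, the executor of necroptosis, was called lower, at 30.2 and 26.1 CPM in NSG and 14.4 and 18.8 CPM in Balb/c (adjusted p = 0.0260, and 0.0825 with the block).

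Genes of cell division were lower in Balb/c tumors. Of 20 mitosis and cell cycle genes, 19 were called lower and none higher, against 16.2% of all genes, but the blocked count was 6, the 4-library count 20 and the left-out range 1 to 7. All 20 were lower in both Balb/c libraries than in both NSG libraries, as were 41% of all genes. Cdk1, the kinase that starts mitosis, fell from 61.8 and 52.1 CPM to 13.7 and 16.0 CPM (log2 fold change -1.94 ± 0.34 SE, adjusted p = 0.00732, and 0.0391 with the block). Cdc20, which starts the exit from mitosis, fell from 30.0 and 27.4 CPM to 10.4 and 9.70 CPM and passed in both fits. Top2a, the topoisomerase that untangles chromosomes, stood at 317 and 276 CPM in NSG and 136 and 116 CPM in Balb/c (adjusted p = 0.0316, and 0.0939 with the block). Mki67, the proliferation antigen, stood at 351 and 341 CPM in NSG and 208 and 216 CPM in Balb/c and was the member that did not pass (adjusted p = 0.0692). The median log2 fold change of the list was -1.50, and -1.41 and -1.66 under the other 2 scalings. It was -1.52 in knockout tumors.

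Promoters of mitotic genes are known for paired CCAAT boxes, bound by NF-Y, and a downstream CHR element bound by the DREAM complex, and 3 are shown because their genes fell. CCAAT is ATTGG on the other strand, and the core of the CHR element was searched as TTTGAA on both strands. The sequences, again the 250 bases before the start from RefSeq on build GRCm38.p6, lie at chr4:118437344-118437593 (minus strand) for Cdc20, chr10:69352913-69353162 (minus strand) for Cdk1 and chr11:99024190-99024439 (minus strand) for Top2a.
Cdc20: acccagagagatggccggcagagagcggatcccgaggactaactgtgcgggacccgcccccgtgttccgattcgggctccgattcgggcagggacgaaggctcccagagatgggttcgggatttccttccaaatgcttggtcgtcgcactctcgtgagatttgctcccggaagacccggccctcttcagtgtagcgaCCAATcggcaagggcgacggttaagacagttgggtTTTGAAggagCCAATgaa
Cdk1: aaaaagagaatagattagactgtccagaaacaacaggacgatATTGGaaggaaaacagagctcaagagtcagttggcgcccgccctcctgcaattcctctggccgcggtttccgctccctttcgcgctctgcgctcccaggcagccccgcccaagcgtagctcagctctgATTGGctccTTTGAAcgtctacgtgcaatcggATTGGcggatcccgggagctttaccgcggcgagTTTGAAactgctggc
Top2a: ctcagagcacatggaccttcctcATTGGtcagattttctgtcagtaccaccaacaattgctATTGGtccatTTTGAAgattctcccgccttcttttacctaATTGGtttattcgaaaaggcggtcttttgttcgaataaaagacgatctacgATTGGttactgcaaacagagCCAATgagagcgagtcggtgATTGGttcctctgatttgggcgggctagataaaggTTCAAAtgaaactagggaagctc
Capitals mark both motifs on either strand. In Cdc20 the stretch holds 2 CCAAT and 1 CHR match, in Cdk1 it holds 3 and 2, and in Top2a 6 and 2. A CCAAT match was in 13 of the 14 promoters at hand for the 19 called genes (92.9%) and in 37.8% of all 27025. A CHR match was in 10 of the 14 (71.4%) and in 18.1% of all. Both motifs are known features of such promoters, and nearly the whole list was called. The shares therefore describe the list and do not bear on the host difference.

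DNA replication genes were lower in 11 of 20 cases and higher in 1 (blocked counts 6 and 1, 4-library counts 12 and 2, left-out range 0 to 2 for the lower ones). Mcm6, a helicase subunit, fell from 119 and 93.4 CPM to 48.2 and 46.0 CPM. Tyms, which makes thymidylate, fell from 24.4 and 24.9 CPM to 7.39 and 8.18 CPM. Mcm2, of the same helicase, stood at 56.4 and 50.4 CPM in NSG and 34.1 and 27.3 CPM in Balb/c (adjusted p = 0.0486, and 0.109 with the block). E2f2 was the member that rose, from 5.75 and 7.21 CPM to 16.3 and 14.1 CPM. A CCAAT match was in 8 of the 10 promoters at hand for the 11 called genes (80%) and a CHR match in 1 (10%). Members that were not called were not counted here either. Replication-dependent histone genes were called in 0 of 14 cases by edgeR (blocked count 0, 4-library count 8, left-out range 0 to 0), although all 14 were lower in both Balb/c libraries than in both NSG libraries, as were 41% of all genes, with a median log2 fold change of -1.02. These genes have near-identical copies and their values are uncertain.

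**Figure D4:**
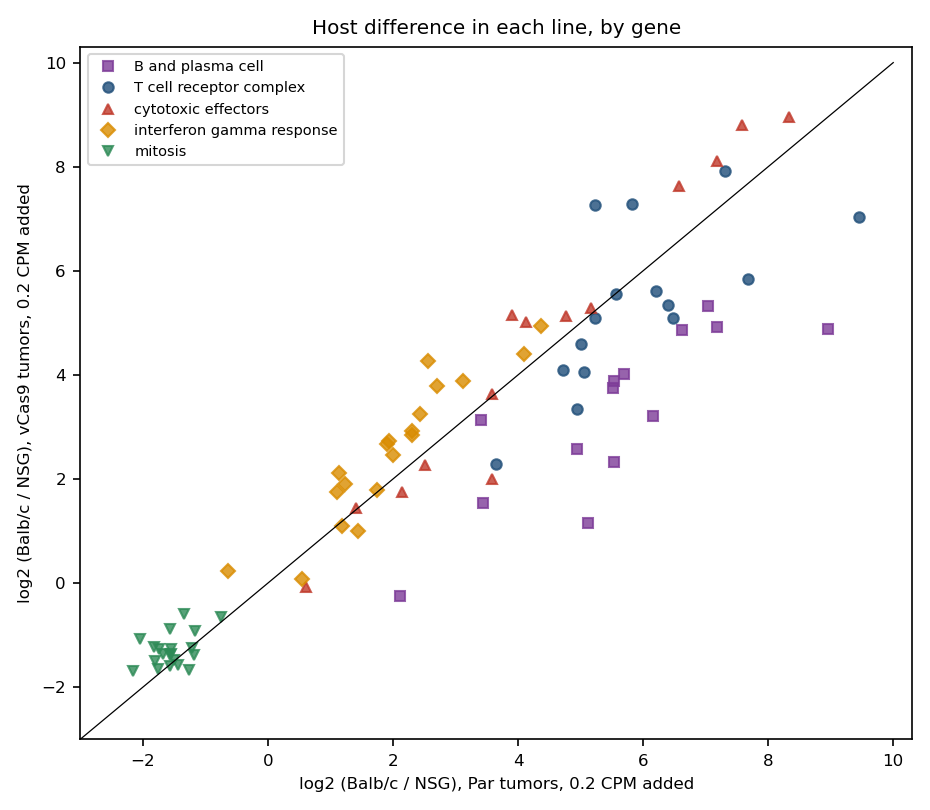
Log2 ratio of Balb/c to NSG tumors for members of 5 gene lists, the Par line on the x axis and the vCas9 line on the y axis, 0.2 CPM added, with the line of equality. B cell genes lie below the line and most interferon gamma and cytotoxic genes on or above it, while mitosis genes lie below 0 in both lines.

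Of 15 endothelial genes, 6 were lower and none higher (blocked count 5, 4-library count 11, left-out range 1 to 4, median log2 fold change -1.33). Plvap, of fenestrated vessels, fell from 37.2 and 68.3 CPM to 7.73 and 11.0 CPM (log2 fold change -2.48 ± 0.49 SE, adjusted p = 0.0103). Lyve1, of lymphatic vessels and some macrophages, fell from 223 and 149 CPM to 48.8 and 17.3 CPM. Cdh5, the junction protein VE-cadherin, fell from 53.2 and 97.9 CPM to 21.1 and 38.7 CPM. Pecam1, the adhesion protein CD31, which some leukocytes also carry, did not pass and its groups overlapped, at 91.4 and 158 CPM in NSG and 116 and 149 CPM in Balb/c (log2 fold change 0.09 ± 0.29 SE, adjusted p = 0.841, and -0.08 with total counts). Prox1, a transcription factor of lymphatic vessels with 4 to 23 counts a library, had the highest value of the list at 1.41 ± 0.98 SE on the log2 scale and did not pass (adjusted p = 0.291). In each host the vCas9 tumor held more Cdh5 than the Par tumor. Collagen and matrix genes gave 5 of 18 lower and none higher, with a blocked count of 0, a 4-library count of 13 and a left-out range of 0 to 0. Col4a1, of basement membranes, stood at 669 and 1020 CPM in NSG and 160 and 245 CPM in Balb/c (log2 fold change -2.06 ± 0.50 SE, adjusted p = 0.0200, and 0.0595 with the block). Col1a1, the main fibrillar collagen, stood at 2530 and 3790 CPM in NSG and 1780 and 1500 CPM in Balb/c and did not pass (adjusted p = 0.181). In 17 of 18 of these genes both Balb/c libraries were below both NSG libraries, as in 41% of all genes.

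Fibroblast genes gave 4 of 14 lower and none higher (blocked count 1, 4-library count 5, left-out range 0 to 2). Cthrc1, secreted by activated fibroblasts, fell from 47.8 and 74.0 CPM to 22.0 and 15.7 CPM and passed in both fits. Pdgfrb, of pericytes and fibroblasts, stood at 54.8 and 85.2 CPM in NSG and 17.8 and 19.2 CPM in Balb/c (adjusted p = 0.0184, and 0.0590 with the block). Pdgfra, of fibroblasts, stood at 175 and 173 CPM in NSG and 135 and 94.7 CPM in Balb/c and did not pass (adjusted p = 0.285). Of 11 metalloproteinase genes, 1 was higher and 3 lower (blocked counts 1 and 1, 4-library counts 1 and 4, left-out ranges 0 to 1 for both). Mmp3 fell from 230 and 210 CPM to 74.2 and 52.6 CPM, and Mmp13 rose from 73.1 and 48.5 CPM to 182 and 164 CPM. Adipocyte genes of the fat pad gave 1 of 13 higher and 4 lower (blocked counts 1 and 2, 4-library counts 2 and 6, left-out range 0 to 3 for the lower ones). Adipoq, which encodes adiponectin, fell from 3.46 and 4.80 CPM to 0.510 and 0.762 CPM. These levels are low in every library.

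Of 18 epithelial genes tested, 1 was higher and none lower, with a blocked count of 0, 4-library counts of 7 higher and 1 lower and a left-out range of 0 to 0. In Balb/c 17 of the 18 were higher in the vCas9 than in the Par tumor, with a median Par to vCas9 log2 ratio of -1.09, and in NSG that median was -0.83. Cdh1, which encodes E-cadherin, stood at 57.8 and 98.7 CPM in NSG and 102 and 200 CPM in Balb/c and did not pass (adjusted p = 0.0775). Among regulators of epithelial-mesenchymal transition, 2 of 11 genes were higher and 3 lower (blocked counts 2 and 2, 4-library counts 2 and 4, left-out ranges 1 to 2 and 0 to 1). Zeb1, a repressor of epithelial genes that stromal and T cells also express, rose from 35.1 and 54.3 CPM to 231 and 133 CPM. Zeb2, which macrophages and killer cells express too, rose from 499 and 408 CPM to 1040 and 1220 CPM. Twist1, another such repressor, fell from 16.5 and 14.7 CPM to 5.44 and 3.60 CPM, and Snai1 from 16.6 and 17.3 CPM to 5.44 and 7.28 CPM. Of 11 skeletal muscle genes 1 was higher (blocked count 1, 4-library count 3, left-out range 1 to 1), Neb, which encodes nebulin, from 4.71 and 5.30 CPM to 170 and 212 CPM (log2 fold change 5.25 ± 0.47 SE, adjusted p = 0.000856). Ckm, the muscle creatine kinase, stood at 0.277 and 0.745 CPM in NSG and 0.170 and 2.08 CPM in Balb/c, overlapping groups.

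Of 16 ribosomal protein genes 10 were lower and none higher, with 6 lower under DESeq2's size factors and 14 with total counts (blocked count 3, 4-library count 15, left-out range 0 to 1). Rplp0 stood at 938 and 937 CPM in NSG and 455 and 426 CPM in Balb/c (log2 fold change -1.09 ± 0.20 SE, adjusted p = 0.00874, and 0.0509 with the block). Rps2 fell from 529 and 485 CPM to 218 and 216 CPM and passed in both fits. Respiratory chain subunits gave 7 of 18 lower and none higher, and 12 with total counts (blocked count 1, 4-library count 9, left-out range 0 to 1). Ndufv1, a subunit of complex I, fell from 54.7 and 52.6 CPM to 28.8 and 31.2 CPM. In the test against knockout tumors 14 of 18 respiratory and 11 of 16 ribosomal genes had a lower host difference in CD95-expressing tumors at an unadjusted p under 0.05, a threshold met by 22.5% of all genes. After adjustment edgeR called none of either list, also without a filter on low counts or with the line as a block. Limma-voom called none either, and DESeq2 called 2 respiratory and 7 ribosomal genes lower, against 403 of 15310 genes.

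Cholesterol synthesis genes gave 7 of 13 lower and none higher (blocked count 2, 4-library count 8, left-out range 0 to 2). Over all genes 15.3% were higher and 16.2% lower, and the p53 and NF-kappaB counts below lie near those shares. Sqle, squalene epoxidase, fell from 82.0 and 59.6 CPM to 28.1 and 35.6 CPM. Hypoxia and glycolysis genes gave 1 of 19 higher and 5 lower, and 9 lower with total counts (blocked counts 0 and 2, 4-library counts 2 and 8, left-out range 1 to 3 for the lower ones). Car9, the hypoxia-induced carbonic anhydrase, fell from 76.7 and 71.9 CPM to 11.0 and 16.6 CPM (log2 fold change -2.42 ± 0.33 SE, adjusted p = 0.00326). Slc2a1, the glucose transporter GLUT1, stood at 348 and 310 CPM in NSG and 415 and 451 CPM in Balb/c and did not pass (adjusted p = 0.286). Of 12 stress genes of the endoplasmic reticulum and amino acid pathways 1 was higher and 3 lower (blocked counts 0 and 1, 4-library counts 4 and 4, left-out ranges 0 to 0 and 1 to 1). Phgdh, the entry enzyme of serine synthesis, fell from 33.5 and 35.3 CPM to 14.4 and 12.3 CPM. Of 11 p53 targets 1 was higher and 2 lower (blocked counts 0 and 1, 4-library counts 3 and 2, left-out ranges 0 to 0 and 1 to 1), and Gdf15, a stress cytokine, fell from 14.2 and 25.8 CPM to 2.04 and 2.56 CPM. Of 10 NF-kappaB targets 2 were higher and 1 lower (blocked counts 0 and 1, 4-library counts 8 and 1, left-out ranges 0 to 0 and 0 to 1). Vcam1, the adhesion molecule that binds lymphocyte integrins, fell from 344 and 298 CPM to 48.6 and 55.5 CPM (log2 fold change -2.62 ± 0.44 SE, adjusted p = 0.00636).

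Of genes averaging at least 20 CPM in the higher host, some of the largest changes lay outside the lists. Ikzf3, the lymphocyte factor Aiolos, had at most 3 counts in an NSG library and 139 and 130 CPM in Balb/c, at least 540-fold higher. Hba-a2, an alpha globin, had at most 2 counts in an NSG library and 128 and 126 CPM in Balb/c. Its near-identical copy Hba-a1 stood at 340 and 488 CPM in NSG and 274 and 266 CPM in Balb/c, so the value of Hba-a2 is uncertain. Among the 10 largest decreases at that level were those of Il11, Cxcl14, Fgg, A2m, Dcstamp, Syt13, Ptpru, Col18a1 and H19. Fgg, a fibrinogen chain, fell from 16.3 and 35.5 CPM to 0.425 and 1.87 CPM. Dcstamp, which fuses osteoclasts and giant cells, fell from 61.7 and 108 CPM to 3.40 and 6.03 CPM. Col18a1, the source of endostatin, fell from 435 and 371 CPM to 25.0 and 34.4 CPM. The calls of A2m (adjusted p = 0.0127) and H19 (0.00924) were lost with the block (0.0544 and 0.0503). H19, an imprinted noncoding RNA, stood at 556 and 166 CPM in NSG and 22.9 and 32.7 CPM in Balb/c, with a spread between the NSG tumors larger than between the Balb/c tumors.

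Among genes called between hosts, the 10 with the smallest unadjusted p for the difference between the host contrasts are given as values. They were chosen by that p. None of the 10 passed adjustment in the main edgeR fit, with adjusted p of 0.0691 to 0.0734. All 10 passed with DESeq2, and with edgeR without a filter on low counts or with the clones crossed in the block. The crossed block was chosen after seeing the data. All these fits use the same libraries that the 10 were picked from, so passing in them is not independent support. With the clones as labelled in the block none passed by edgeR (adjusted p = 0.246). None passed either with limma-voom, DESeq2's size factors, total counts or a filter of at least 1 CPM in 2 libraries. The adjusted p given below are those of the main edgeR fit unless the block is named. Of the 10, Ccl24, Pf4, Rgs1, Cd38 and Odc1 had a lower and Add2, Tns4, Ccn5, Morc4 and Glis3 a higher log2 fold change in CD95-expressing than in knockout tumors. Each of the second 5 was lower in Balb/c tumors under both conditions, by more in knockout tumors. Ccn5, a secreted matricellular protein, fell from 54.7 and 71.7 CPM to 21.2 and 17.4 CPM in CD95-expressing tumors. In knockout tumors it stood at 99.1 and 97.8 CPM in NSG and 6.72 and 5.62 CPM in Balb/c (difference 2.28 ± 0.28 SE, adjusted p = 0.0734). Add2, a cytoskeletal adducin, stood at 12.1 and 7.45 CPM in NSG and 2.89 and 5.27 CPM in Balb/c CD95-expressing tumors (adjusted p = 0.0395, and 0.101 with the block). In knockout tumors it stood at 25.0 and 37.5 CPM in NSG and under 1 CPM in Balb/c (difference 5.87 ± 0.65 SE, adjusted p = 0.0691). Odc1, the first enzyme of polyamine synthesis, stood at 844 and 694 CPM in NSG and 202 and 206 CPM in Balb/c CD95-expressing tumors (log2 fold change -1.91, adjusted p = 0.00108). In knockout tumors it stood at 190 and 167 CPM in NSG and 176 and 174 CPM in Balb/c, and the difference of the log2 fold changes was -1.89 ± 0.26 (SE, adjusted p = 0.0734). Ccl24, an eotaxin made by macrophages, rose from 25.1 and 19.5 CPM to 43.1 and 48.0 CPM in CD95-expressing tumors. In knockout tumors it stood at 3.10 and 4.38 CPM in NSG and 70.6 and 68.1 CPM in Balb/c (difference -3.18 ± 0.30 SE, adjusted p = 0.0691). Pf4, a chemokine of platelets and some macrophages, fell from 111 and 82.6 CPM to 35.1 and 44.8 CPM in CD95-expressing tumors. It stood at 14.8 and 23.6 CPM in NSG and 75.3 and 69.2 CPM in Balb/c knockout tumors (difference -3.19 ± 0.37 SE, adjusted p = 0.0691). Cd38, an NAD-consuming ectoenzyme, fell from 168 and 170 CPM to 60.3 and 74.6 CPM, and in knockout tumors stood at 65.3 and 78.2 CPM in NSG and 104 and 95.8 CPM in Balb/c (adjusted p of the difference = 0.0734). For Odc1, Cd38 and Pf4 the NSG tumors with CD95 were the highest of the 4 groups, with no overlap.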

How the data were processed

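Total RNA of 8 tumor samples was sequenced on Illumina libraries, per the labels' protocols. The authors deposited 1 table per sample of read counts per Ensembl gene, not normalised. Per the submitters' processing notes the builds mm10 and hg19 and the tools cutadapt 1.13, STAR, HTSeq 0.6.1p1 and DESeq2 were used, without a stated role. The annotation and the strand setting are not given in the sources used here, so overlapping and antisense genes cannot be told apart.

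Here gene symbols came from GENCODE M21, matched by 24991 of 25006 identifiers. Counts were normalised by TMM and filtered with filterByExpr, which left 15310 genes. The quasi-likelihood test of edgeR 4.0.16 (R 4.3.3) was fitted to all 8 libraries with 4 group means and 4 residual degrees of freedom, and p-values were adjusted by Benjamini-Hochberg over all genes at 0.05. The fits were also run on simulated data with far fewer changed genes than were called here, and that run is not used as support. The host effect was taken in CD95-expressing tumors, in knockout tumors, and as their difference. Alternatives were DESeq2 1.42.0, limma 3.58.1 (voom), other scalings and filters, leaving out each library, and the cell line as a block. The same line grew in both hosts, which pairs the libraries by design. The Par to vCas9 differences in NSG and in Balb/c correlated across genes at r = 0.0875, and the clone differences at r = -0.353.

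The samples and gene lists were chosen with earlier results of these data known. Named genes are the first 2 measured and the most changed members of each list, the 10 largest changes per direction, Fas, Fasl and the 10 smallest p of the difference, with other members added to show the spread. Some items are not reported here.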

Additional observations from a re-analysis of the deposited data

Results flagged for a closer look

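For 6 gene lists the median log2 ratio of Balb/c to NSG tumors had one sign in both CD95-expressing lines and the opposite sign in both CD95 knockout clones. The difference of the list medians was not tested. For macrophage and monocyte genes the median fold change was -0.63 on the log2 scale in CD95-expressing tumors (-0.90 in Par, -0.63 in vCas9) and 1.63 in knockout tumors (2.16 in clone 54, 0.80 in clone 69). Chemokine ligands gave -0.49 (-0.21 and -0.63) against 0.85 (0.75 and 0.88). Red blood cell genes gave 0.70 (0.95 and 0.49) against -2.57 (-4.59 and -1.24). Hypoxia and glycolysis genes gave -0.45 (-0.65 and -0.25) against 0.36 (0.34 and 0.56). Cytosolic ribosomal protein genes gave -0.64 (-0.63 and -0.67) against 0.19 (0.33 and 0.08). Genes of the unfolded protein response and amino acid stress gave -0.14 (-0.06 and -0.27) against 0.36 (0.37 and 0.79), but over all genes the median ratio was -0.07 in both Par and vCas9, so the value in Par lay close to that of all genes and its sign is not separable from the scaling, and the list's -0.14 became -0.05 with DESeq2's size factors. The clone values pair the clones across hosts by their labels. When the clones were crossed, the ribosomal protein medians became 0.42 and -0.03 and no longer shared a sign, and the signs of the other 5 lists held.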

How the results depend on the processing

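When the line was a block, which uses the replicate pairing of lines across hosts, the count of genes called between hosts was 2073 in CD95-expressing and 2878 in knockout tumors, and 7 instead of 16 gene lists had at least 0.5 of their tested members called in one direction. With only the 4 CD95-expressing libraries, 6475 genes passed with the block, a fit with 1 residual degree of freedom, and 6838 without. Leaving out 1 of the 8 libraries at a time gave 858 to 6361 genes in CD95-expressing and 2461 to 4640 in knockout tumors, and leaving out 1 of the 4 CD95-expressing libraries gave 5 to 8 gene lists. The difference between the 2 host effects, with 0 genes in the main fit, gave 974 with DESeq2, 674 without a filter on low counts, and 0 to 2370 when 1 library was left out, the 2370 being without the Balb/c library of clone 69. Crossing the pairing of the knockout clones in the block over 8 libraries, chosen after seeing the data, gave 5733 genes in CD95-expressing tumors, 5436 in knockout tumors and 307 for the difference. The planned block, with the clones as labelled, gave 0 for the difference (smallest adjusted p = 0.246 by edgeR). Limma-voom, and edgeR with DESeq2's size factors, total counts or a filter of at least 1 CPM in 2 libraries, also gave 0 for the difference. Counts and p-values from the block over 8 libraries rest on the clone numbers in the labels, and whether those are crossed in 1 host was not tested. Of the 161 genes named, 4 changed sign, none of which was called. Without NSG Par, Cxcl10 stood at 0.03 (range over the left-out libraries -0.44 to 0.03) and Gzme at -0.31 (range -0.31 to 1), and without Balb/c vCas9 Ckm stood at -1.45 (range -1.45 to 2.03). Pecam1 stood at -0.08 with total counts and at -0.27 to 0.52 over the left-out libraries. With 2 libraries a host, a lone library left in a host is assumed to vary like the other groups, and genes near the floor of 3 counts carry counting error that limits their folds.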
